A study of Mus musculus with 11 samples.

Results

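Nodal, Lefty1, Lefty2, Tdgf1, Smad7, T, Mixl1 and Eomes are genes of the Nodal pathway and of the mesendoderm, the tissue that Nodal induces. These 8 genes were taken by name from a series of mouse embryonic stem (ES) cells whose 6 tables list 30247 gene symbols in all. All 8 are present in the 5 single-cell tables, and 5 of them are rows of the bulk table, which has none for T, Mixl1 and Eomes. The study compared ES cells grown inside soft agarose microgels with those grown on tissue-culture plastic, and wild-type cells with lines labelled for high or low overexpression of the junction protein plakoglobin (gene Jup).

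Nodal is a secreted ligand of the TGF-beta superfamily. It binds activin receptors together with the membrane-anchored co-receptor Cripto, the product of Tdgf1. The receptors phosphorylate SMAD proteins, which enter the nucleus with Smad4 and activate targets through partners such as Foxh1. Nodal itself, Lefty1 and Lefty2 are among these targets. The Lefty proteins are secreted antagonists that close a negative feedback loop, and Smad7 is an intracellular inhibitor of the activated receptors. In the embryo the pathway drives formation of the primitive streak, where the transcription factors T (brachyury), Mixl1 and Eomes are switched on. Undifferentiated ES cells are known to express the ligand, the co-receptor and the antagonists, while the streak factors mark cells that leave pluripotency.

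Bulk RNA sequencing by Smart-seq2 covered 3 gel and 3 plastic libraries in 2i/LIF, each of about 1000 cells of the line Rex1GFPd2, whose name refers to a destabilised GFP reporter for Rex1 (Zfp42). In 2i/LIF, blockers of the kinases MEK and GSK3 are added to LIF, a cytokine, and keep ES cells naive, while serum/LIF permits a more mixed population. The single-cell libraries, 1 per condition, were made with inDrop, in which cells are barcoded in droplets and transcripts are tallied by their unique molecular identifiers (UMIs). These were E14 wild-type (WT) cells on plastic in serum/LIF, E14 on plastic in 2i/LIF, E14 in agarose microgels in serum/LIF, and lines of genotype PGHIGH and PGLOW on plastic in serum/LIF. The last pair carries plakoglobin under the constitutive CAG promoter, and neither the parent line nor the number of clones is given in the sources used here. All 11 samples are labelled as ES cells, and no group carries another agent.

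The bulk libraries held 866721, 808903 and 707718 reads in gel and 2390575, 2583256 and 637235 on plastic, so depth differed between the groups. The single-cell libraries held 112 to 2889 cells of at least 1000 UMIs, with medians of 1731.5 to 2465 UMIs per cell, and no cell barcode occurred in more than 1 library. Jup stood at 36.7 CPM (UMIs scaled to the same library total) in WT serum/LIF, 37.9 in the line labelled low and 47.8 in the line labelled high, against 46.7 in WT 2i/LIF. These values rest on 74, 109, 206 and 387 UMIs in this order, and their counting intervals were not computed. In counted Jup the low line was level with wild type, and the high line with WT 2i/LIF. Whether transcripts of the added plakoglobin gene were counted as Jup was not tested, so overexpression cannot be judged from these values. Both lines are named by label only, as the libraries labelled JupLow and JupHigh. Of 8 ES cell markers, 8 had counts in bulk and in each single-cell library except WT serum/LIF, where Sox2 was listed at 0. Sox2 overlaps another gene. Between JupLow and WT serum/LIF, 16.2% of genes that overlap another gene differed 2-fold or more, against 3.73% of genes that overlap none, while between JupHigh and JupLow the shares were 10.4% and 11.8%; whether the WT serum/LIF table was counted by other rules was not tested. Of the 8 genes described here, Eomes overlaps another annotated gene and the other 7 overlap none. The gel table is cut off within a row and its barcodes end early in the alphabetical range that the other tables cover, so it holds only a part of that library. Markers of primitive endoderm, an extra-embryonic cell type, summed to 2317 CPM in WT serum/LIF and to 264 to 628 CPM elsewhere. All 13 had UMIs in WT serum/LIF and JupLow, while Gata6 was at 0 in WT 2i/LIF, Pdgfra in the gel and Amn in JupHigh.

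Both Lefty genes and Mixl1 lie within 245 kb of chromosome 1 (GRCm38, GENCODE M21), at positions 180935022 to 180938400 (Lefty1, plus strand), 180893108 to 180899103 (Lefty2, plus strand) and 180693043 to 180697034 (Mixl1, minus strand). The coding sequences of Lefty1 and Lefty2 are 1104 bases each and identical at 1014 positions (91.8%), with no gap. Over the whole transcript, 25.0% of the 31-base stretches of Lefty1 also occur in Lefty2, and 17.6% of those of Lefty2 occur in another gene. In the last 500 bases the shares were 6.38% and 1.06%. Reads from shared stretches could be dropped or split by the counting, which makes Lefty levels uncertain in the full-length bulk assay and less so in the droplet assay. Tdgf1 shares 17.4% of its stretches with its pseudogene Tdgf1-ps1, and 0% in its last 500 bases. Promoter entries (RefSeq, GRCm38.p6, 300 bases) were read for Nodal, Tdgf1, T and Eomes, while Smad7, on chromosome 18, was left out. In these, 6 motifs were searched on both strands. The letters AATNNACA, a core of the motif bound by FOXH1, occurred 2 times in the promoter of Tdgf1 and not in the other 3, and 12.2% of all 32851 promoters hold them. The T-box letters AGGTGTGA (1.28% of all promoters), the SMAD palindrome GTCTAGAC (0.213%), the SMAD GC box GGCGCC (11.9%), the TCF/LEF core ATCAAAG (3.73%) and the TATA box letters TATAAA (13.6%) occurred in none of the 4, so no match overlaps another motif. That says only that these letters are not in these windows.

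In GRCm38 Nodal occupies 61417972 to 61425338 of chromosome 10 (plus strand), T 8434423 to 8442496 of chromosome 17 (plus strand), Tdgf1 110939603 to 110946158 of chromosome 9 (minus strand), Eomes 118478212 to 118486132 of chromosome 9 (plus strand) and Smad7 75367529 to 75395935 of chromosome 18 (plus strand). All 8 genes are protein coding. In bulk, cells in gel had less Nodal and Lefty1 transcript and more Smad7 than cells on plastic in 2i/LIF, while Lefty2 and Tdgf1 did not pass the test. Of the 5 genes tested, 2 fell and 1 rose, by limma on log2(value + 0.5) with Benjamini-Hochberg adjustment at 0.05. Over all 7878 genes tested 36.9% were called, 18.3% higher and 18.6% lower in gel, so the share of the 5 that was called is not a result about them as a group. Gel and plastic did not overlap for the same 3 genes, nor for 49.5% of all genes tested. ES cell markers also changed in this comparison, with 4 of 8 higher in gel (Pou5f1 by a log2 fold change of 1.31, Sox2 by 1.51, Esrrb by 1.55 and Dppa5a by 0.53) and 3 lower (Nanog -0.34, Zfp42 -0.32 and Sall4 -0.80), by the same limma test. Of markers of other cell types, 1 of 2 endoderm markers tested was higher (Lama1, 0.99), the 1 neural marker tested was lower (Tubb3, -0.54) and the 1 formative or primed marker tested did not pass (Dnmt3b, 0.37). The part of these in the changes of Nodal, Lefty1 and Smad7 was not tested. Nothing in the labels says that the replicates came from separate cultures, so p-values measure the spread between these libraries, which may be technical. In bulk, fewer cells of a type and less RNA per cell cannot be told apart.

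Nodal, the ligand, had deposited values (counts divided by 1 factor per library) of 35.0, 46.7 and 41.2 in gel and 62.3, 59.9 and 85.0 on plastic. Every gel library lay below every plastic library. The log2 fold change was -0.74 (SE 0.19, limma adjusted p = 0.00492). Lefty1, the antagonist, stood at 27.1, 14.7 and 8.24 in gel and at 34.5, 36.8 and 36.4 on plastic. The plastic libraries were close together, while the gel libraries spread widely below them, on 24, 12 and 6 reads. Its log2 fold change was -1.24 (SE 0.32, limma adjusted p = 0.00569). It was -0.83 without gel replicate 3, the library with 6 reads, and -1.66 without gel replicate 1, and passed the test in both. Lefty1 was not tested where at least 10 reads in all 6 libraries were required.

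Lefty2, whose protein has the same role, had values of 71.1, 72.4 and 78.3 in gel and 79.8, 53.2 and 63.8 on plastic. The groups overlapped, and the log2 fold change of 0.19 (SE 0.17, limma adjusted p = 0.395) did not pass. As a measure that needs no scaling between libraries, Lefty2 made up 72.4%, 83.1% and 90.5% of the reads of both Lefty genes in gel and 69.8%, 59.1% and 63.6% on plastic. The means were 82.0% ± 9.08 and 64.2% ± 5.37 (SD, n = 3), and the groups did not overlap. An exact permutation test over libraries, two-sided, gave p = 0.10, which is the smallest p that 3 against 3 allows, so this design cannot pass 0.05.

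Tdgf1, the co-receptor, was at 334, 329 and 388 in gel and at 346, 318 and 355 on plastic. The groups overlapped, with a log2 fold change of 0.041 (SE 0.11, limma adjusted p = 0.787). Per kilobase of transcript it was the most abundant of the 5, at 181 ± 16.8 in gel and 176 ± 10.1 on plastic (SD, n = 3). On plastic the per-kilobase values of Nodal (33.0 ± 6.61), Lefty2 (26.5 ± 5.41) and Lefty1 (22.2 ± 0.761) followed, neighbours in this order lying within about an SD of each other, and Smad7 was lowest at 2.58 ± 0.342. In gel Lefty2 (29.9 ± 1.55) stood above Nodal (19.5 ± 2.79), Lefty1 (10.3 ± 5.91) and Smad7 (5.99 ± 1.30) on the same per-kilobase scale.

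Smad7, the receptor inhibitor, had values of 28.2, 29.5 and 19.2 in gel and of 11.6, 9.39 and 12.1 on plastic. All gel libraries lay above all plastic libraries. The log2 fold change was 1.16 (SE 0.29, limma adjusted p = 0.00447), on 8 to 28 reads per library. When every library was thinned to the depth of the shallowest, it was 0.81 and no longer passed (limma adjusted p = 0.0865). Smad7 was not tested where at least 10 reads in all 6 libraries were required.

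**Figure D1:**
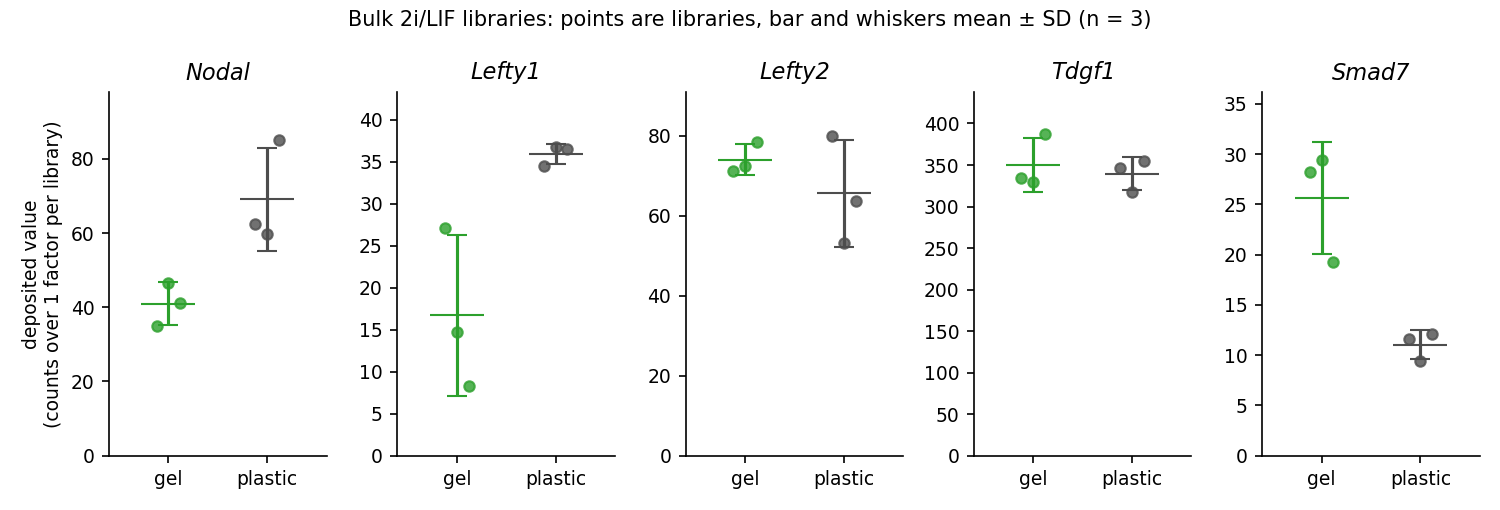
Deposited bulk values (y axis, counts divided by 1 factor per library) of the 5 genes with a row in the bulk table, for 3 gel and 3 plastic libraries in 2i/LIF; points are libraries, the horizontal bar and whiskers the mean ± SD. Gel lies wholly below plastic for Nodal and Lefty1 and wholly above it for Smad7, and the groups overlap for Lefty2 and Tdgf1.

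The wider pathway was read from 5 lists with 48 genes in all, the 8 genes included. In bulk 18 of them were tested, of which 6 rose and 3 fell, with a median log2 fold change of 0.24 against -0.022 over all genes tested. The share called among all genes tested was 36.9% (18.3% higher and 18.6% lower), so the count does not set these genes apart. The signal carrier Smad4 rose by a log2 fold change of 1.33, and Trim33, a chromatin reader that binds activated SMADs, by 0.61. Ski and Skil (SnoN) are both SMAD co-repressors, and they went opposite ways, at 1.47 and -0.80. The streak and WNT target genes Sp5 (1.73) and Cdx1 (1.09) rose. Smad4 and Trim33 overlap another annotated gene, which makes their counts uncertain. Adjusted p-values of these 6 by limma lay under the threshold of 0.05. The calls of Cdx1 and Trim33 were lost with DESeq2, at adjusted p = 0.0536 and 0.0508. That of Cdx1 was also lost without plastic replicate 2 (adjusted p = 0.0831 by limma). That of Trim33 was lost without gel replicate 3 (0.0938) and without plastic replicate 1 (0.0863). Smad4, Ski, Sp5 and Cdx1 had 7, 8, 3 and 5 reads in plastic replicate 3. They were not tested where at least 10 reads in all 6 libraries were required. Sp5 was also not tested after thinning to the shallowest library. Of the 4 receptor genes, 3 were listed in bulk and 0 passed the expression filter.

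In the single-cell data each condition has 1 library, so no difference below has a replicate check. Values are UMIs summed over the cells of a library, in CPM, and all intervals are 95% intervals that cover counting error only. Past 2-fold means a CPM ratio of at least 2 or at most 0.5, which says nothing of replication. Of the 5 comparisons, 4 share the WT serum/LIF library as control, and JupHigh over JupLow shares its libraries with 2 of them.

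Nodal was similar in level across the 5 libraries, at 54.0 CPM in WT serum/LIF (44.4 to 65.2, 109 UMIs), 38.4 in WT 2i/LIF (34.3 to 42.8), 42.3 in gel (20.3 to 77.9, 10 UMIs), 48.6 in JupLow (40.9 to 57.4) and 46.4 in JupHigh (40.2 to 53.3). The order runs from WT serum/LIF through JupLow, JupHigh and gel to WT 2i/LIF, and the intervals of neighbours in that order overlap. The 2i/LIF library alone differed from WT serum/LIF beyond counting error, with a log2 ratio of -0.49 (-0.81 to -0.17). With TMM scaling, a method that sets the bulk of genes equal, it was -0.24 and the interval held 0 (-0.56 to 0.088).

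Lefty1 stood at 58.0 CPM in WT serum/LIF (48.0 to 69.5), 40.0 in WT 2i/LIF (35.8 to 44.5), 114 in gel (75.3 to 166), 63.6 in JupLow (54.7 to 73.5) and 33.4 in JupHigh (28.2 to 39.3). The libraries labelled JupHigh and WT 2i/LIF were thus low, and JupLow lay beside WT serum/LIF. Markers of other cell states moved with this split. The 6 formative or primed markers summed to 785 CPM in WT serum/LIF, 946 in JupLow and 902 in gel, against 166 in WT 2i/LIF and 381 in JupHigh, where Fgf5 was at 0 in both. The 8 ES cell markers summed to 1762, 2114 and 2409 CPM in the first 3 and to 4417 and 4806 CPM in the last pair. Their part in the Lefty1 levels was not tested. JupHigh over JupLow gave a log2 ratio of -0.93 (-1.25 to -0.61) and JupHigh over WT -0.80 (-1.16 to -0.43). For 2i/LIF over serum/LIF it was -0.54 (-0.85 to -0.22), and -0.28 with TMM scaling, where the interval held 0 (-0.59 to 0.033). Of the 27 Lefty1 UMIs in gel, 14 came from a single cell. With the richest cell left out of both libraries, the log2 ratio of gel over plastic went from 0.98 (0.32 to 1.59) to 0.023 (-0.93 to 0.86). Without cells of 3 or more endoderm marker UMIs it was 0.50 (-0.24 to 1.18). With every deposited barcode it was 1.19 (0.79 to 1.58), and gel barcodes under 500 UMIs stood at 121 CPM (22 UMIs).

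Lefty2 had the widest range, as a fold, of the 5 better-counted genes. It was at 8.92 CPM in WT serum/LIF (5.29 to 14.1, 18 UMIs), 72.3 in WT 2i/LIF (66.6 to 78.3, 599 UMIs), 38.1 for the gel cells (17.4 to 72.3, 9 UMIs), 27.4 in JupLow (21.7 to 34.2) and 25.1 in JupHigh (20.6 to 30.2). WT serum/LIF was thus the lowest and WT 2i/LIF the highest, while JupLow and JupHigh did not differ beyond counting error (log2 ratio -0.13, -0.56 to 0.31). Over WT serum/LIF the log2 ratio was 3.02 in 2i/LIF (2.35 to 3.78), 2.09 for gel (0.76 to 3.32), 1.62 in JupLow (0.87 to 2.45) and 1.49 in JupHigh (0.76 to 2.30). Leaving out the richest cell gave 3.17, 2.11, 1.72 and 1.62 in the same order.

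The share of Lefty2 in the UMIs of both Lefty genes does not depend on library scaling. It was 13.3% in WT serum/LIF (exact binomial interval 8.10 to 20.3), 64.4% in WT 2i/LIF (61.2 to 67.5), 25.0% in gel (12.1 to 42.2), 30.2% in JupLow (24.7 to 36.1) and 42.9% in JupHigh (36.7 to 49.2). WT 2i/LIF stood above all serum/LIF libraries, and JupHigh above JupLow and WT serum/LIF. The bulk plastic libraries, also in 2i/LIF, gave 64.2% as a mean of reads, from another line and a full-length assay, so the values are only set side by side. The share of reads is not corrected for transcript length, 2.47 kb for Lefty2 and 1.62 kb for Lefty1, and so is another measure than a share of UMIs.

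**Figure D2:**
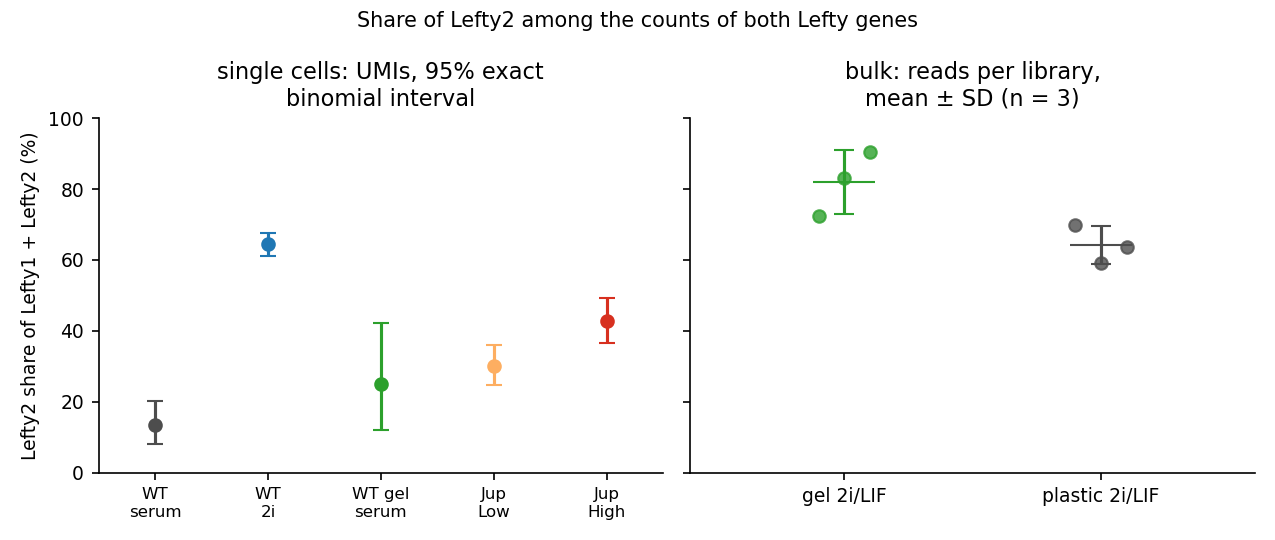
Share of Lefty2 (y axis, percent) in the counts of Lefty1 and Lefty2 together: on the left UMIs of the 5 single-cell libraries with exact binomial 95% intervals, on the right reads of the 6 bulk libraries with mean ± SD. The share is lowest in WT serum/LIF (13.3%) and highest among single-cell libraries in WT 2i/LIF (64.4%). Read shares are not corrected for transcript length.

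Tdgf1 was measured most precisely, at 291 CPM in WT serum/LIF (268 to 315), 130 in WT 2i/LIF (122 to 138), 517 in gel (429 to 617), 230 in JupLow (213 to 248) and 263 in JupHigh (248 to 279). The gel library was highest and the 2i/LIF library lowest, with log2 ratios to WT serum/LIF of 0.83 (0.53 to 1.11) and -1.16 (-1.31 to -1.02). With TMM scaling the 2i/LIF value was -0.91 (-1.06 to -0.76), no longer past 2-fold. In gel 1 cell held 14 of the 122 Tdgf1 UMIs, and without the richest cells the gel value was 0.70 (0.39 to 1.0). JupLow lay below WT, at -0.34 (-0.50 to -0.18), and ran from -0.73 with every deposited barcode to -0.17 with TMM scaling. JupHigh over WT was -0.15 (-0.29 to 0.00), and ran from -0.53 (-0.63 to -0.44) with every deposited barcode to 0.13 (-0.013 to 0.28) with TMM scaling. JupHigh over JupLow was 0.19 and ran from 0.083 to 0.31 over the alternatives tried. In WT serum/LIF, barcodes under 500 UMIs, which were not counted as cells, carried 481 CPM of Tdgf1 against 291 in cells. With every deposited barcode included, gel over plastic became 0.37 (0.20 to 0.54).

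Smad7 was at 17.8 CPM in WT serum/LIF (12.5 to 24.7), 14.2 in WT 2i/LIF (11.8 to 17.1), 50.8 in gel (26.3 to 88.7, 12 UMIs), 22.2 in JupLow (17.1 to 28.4) and 30.9 in JupHigh (25.8 to 36.6). Gel was highest, and gel lay above plastic in bulk too, where line, medium and assay differ. Gel over plastic gave a log2 ratio of 1.51 (0.43 to 2.49), or 1.30 (0.12 to 2.34) without the richest cells, and JupHigh over WT 0.79 (0.25 to 1.36). The interval of JupLow over WT, 0.32 (-0.29 to 0.95), and that of 2i/LIF over serum/LIF, -0.32 (-0.87 to 0.26), held 0. JupHigh over JupLow, which does not use the WT serum/LIF library, was 0.47 and ran from 0.35 to 0.89 over the alternatives tried.

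**Figure D3:**
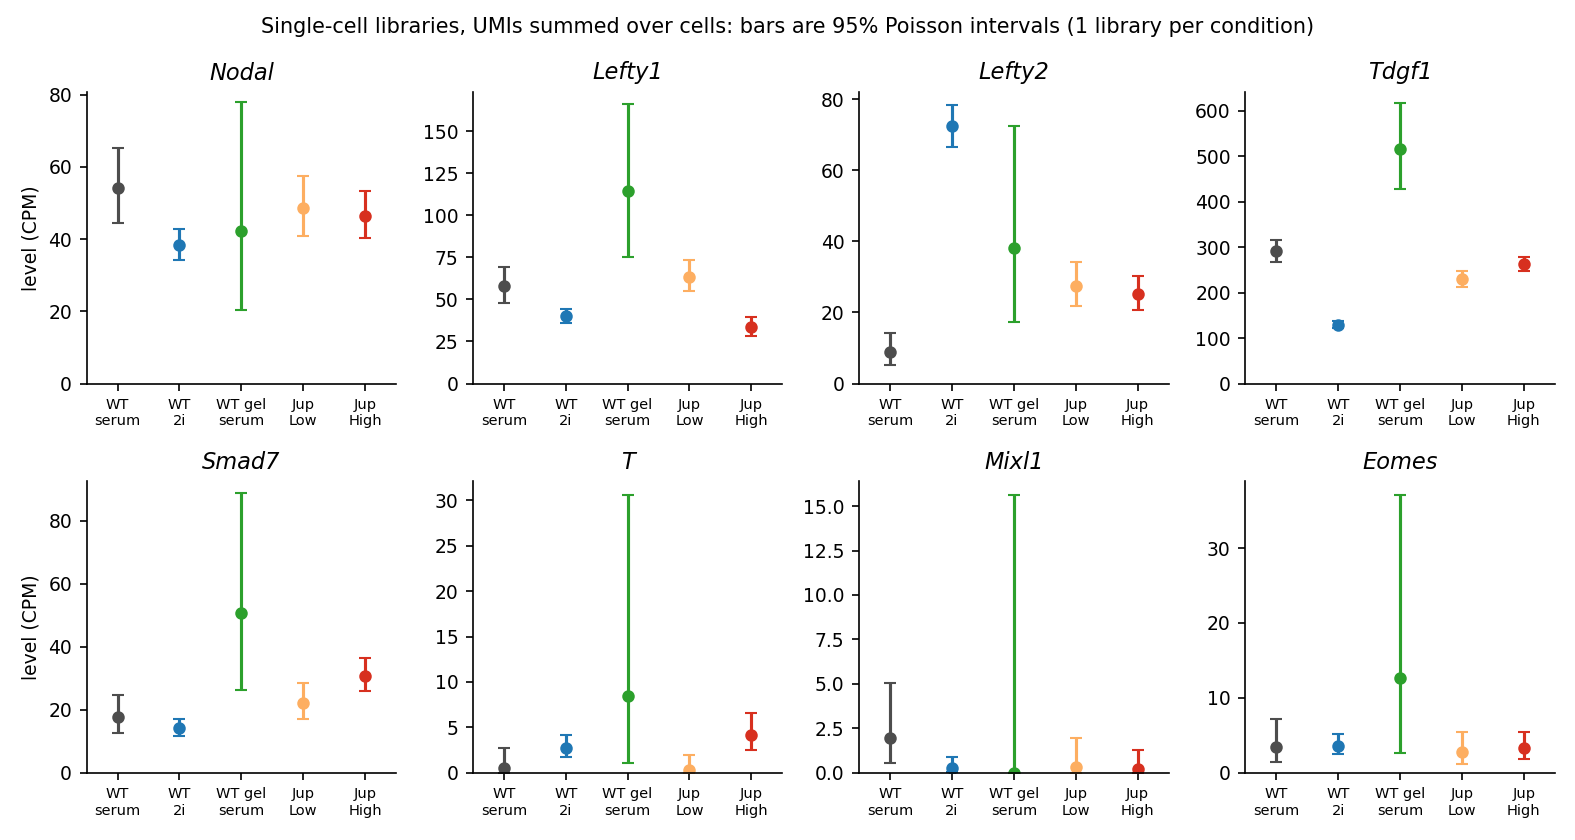
Levels of the 8 genes (y axis, CPM in cells of at least 1000 UMIs; each panel has its own scale) in the 5 single-cell libraries, with exact Poisson 95% intervals. Nodal differs little between libraries, Lefty2 is lowest in WT serum/LIF, and the streak factors T, Mixl1 and Eomes are near the limit of detection.

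The streak factors were close to the limit of detection. T had 1 UMI in WT serum/LIF, 23 in WT 2i/LIF, 2 in gel, 1 in JupLow and 18 in JupHigh. That was 2.78 CPM in WT 2i/LIF (1.76 to 4.17) and 4.18 CPM in JupHigh (2.47 to 6.60), in 22 of 2889 and 18 of 2153 cells. The ratio of JupHigh to JupLow, on the single UMI of JupLow, had a log2 value of 3.59 (0.92 to 8.97). JupHigh over WT gave 3.07 (0.41 to 8.46). 2i/LIF over serum/LIF, at 2.49, had an interval that held 0 (-0.14 to 7.85). These sizes rest on the single UMIs of WT serum/LIF and JupLow. With each cell thinned to 1000 UMIs, no T UMI was left in either, and against a floor of 3 UMIs JupHigh was higher by a log2 ratio of at least 0.17 than WT, with a counting interval from -0.41, and at least 0.89 than JupLow. With every deposited barcode JupHigh over WT was 1.41 (0.20 to 2.78) and 2i/LIF over serum/LIF 0.75 (-0.44 to 2.11). The tables differ in such barcodes: WT 2i/LIF holds 1 under 500 UMIs, JupHigh 1343 and WT serum/LIF 5905. In 2i/LIF over serum/LIF they thus enter almost only on the serum/LIF side. WT serum/LIF barcodes under 500 UMIs held 7 UMIs of T. Mixl1 had 4, 2, 0, 1 and 1 UMIs in the same order of libraries. Its log2 ratio of 2i/LIF over serum/LIF was -3.04 (-6.50 to -0.23) on 2 and 4 UMIs, with TMM scaling the interval reached above 0 (-6.25 to 0.019), and in the other 4 comparisons it held 0. In gel 3 UMIs, the floor used here, are 12.7 CPM. Eomes had 7, 30, 3, 8 and 14 UMIs, or 3.47, 3.62, 12.7, 2.78 and 3.25 CPM, and the counting interval of each of its 5 ratios held 0. Its overlap with another gene makes the WT serum/LIF value uncertain.

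Counts past 2-fold were taken over genes that reached 5 CPM in either library and had a ratio. Genes with 3 UMIs or fewer in both libraries had none, nor had genes at 0 in 1 library whose floor gave no bound. T, on 2 UMIs in gel and 1 in WT, was left out of gel over plastic for this reason. In 2i/LIF over serum/LIF 2 of 5 were past 2-fold, Lefty2 upward and Tdgf1 (though not with TMM scaling) downward, where 34.1% of 12298 genes were (12.9% upward and 21.2% downward). In gel over plastic 3 of 6 were past 2-fold, all upward (Lefty2, Smad7 and, on 3 UMIs in gel, Eomes), where 25.8% of all genes were (11.2% upward and 14.5% downward). Lefty2 alone of 5 was past 2-fold in JupHigh over WT, against 29.7% of all genes (9.4% upward and 20.3% downward), and in JupLow over WT, against 18.8% (7.63% upward and 11.2% downward). In JupHigh over JupLow 0 of 5 were, against 16.4% (4.57% upward and 11.8% downward). These shares read the genes against a background in which many genes differ, and single genes past 2-fold are not set apart by it. Median log2 ratios of these genes were -0.49, 1.24, -0.15, 0.13 and -0.068 in this order, beside -0.079, -0.075, -0.21, -0.033 and -0.13 over all genes. TMM scaling adds 0.25, 0.085, 0.28, 0.17 and 0.11 to every log2 ratio of the respective comparison. With it Smad7 in JupHigh over WT (1.07) and Lefty1 in gel over plastic were past 2-fold as well. The overlap check used a smaller set of genes than these shares, so its values are not parts of them. There, of genes that overlap another gene, 28.6%, 23.9%, 24.6%, 16.2% and 10.4% were past 2-fold in the same order. Of 3273, 3235, 3135, 3108 and 3066 genes that overlap none, 19.2%, 12.4%, 15.1%, 3.73% and 11.8% were.

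**Figure D4:**
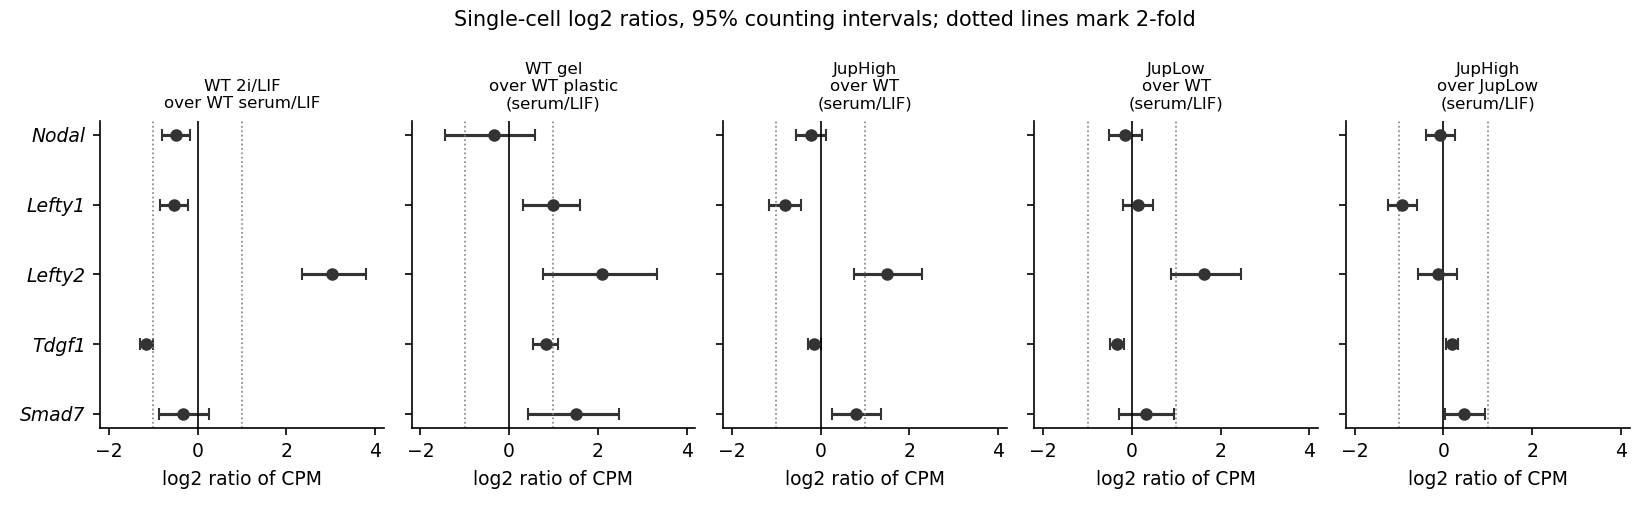
Log2 ratios of CPM (x axis) of the 5 better-counted genes in the 5 single-cell comparisons, with 95% counting intervals; the solid line marks no difference and dotted lines 2-fold. Lefty2 lies to the right of 0 in each comparison with WT serum/LIF, and Nodal stays within 2-fold in all 5.

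Of the 48 pathway genes, 31 reached 5 CPM in 2i/LIF over serum/LIF, with 5 past 2-fold upward and 8 downward, where 12.9% and 21.2% of all genes were. Skil, the SMAD co-repressor that is itself a known target of the pathway, was at 145 CPM in WT serum/LIF and 8.21 in WT 2i/LIF, a log2 ratio of -4.14 (-4.54 to -3.75). Sp5 went the other way, from 8.92 to 68.1 CPM (2.93, 2.26 to 3.70). Ltbp1, which binds latent TGF-beta, was lower, from 26.8 to 5.79 CPM, and overlaps another gene. In gel over plastic 7 of 29 were past 2-fold upward and 3 downward, against 11.2% and 14.5% of all genes. Pmepa1, a TGF-beta-induced inhibitor, was lower at 8.47 against 36.7 CPM, as was the proprotein convertase Furin, which cleaves the Nodal precursor, at 8.47 against 35.2 CPM. Both rested on few UMIs, with intervals of -5.19 to -0.21 and -5.13 to -0.15. Smurf2, a ubiquitin ligase that targets the receptors, was at 16.9 against 38.7 CPM with an interval that held 0. Furin and Smurf2 each overlap another gene.

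By the rule for naming list genes, Skil, Sp5 and Fgf17 were named both in JupHigh over WT and in JupHigh over JupLow. Skil was at 38.3 CPM in JupHigh, 147 in JupLow and 145 in WT. Sp5 was at 79.3, 16.0 and 8.92 CPM, and Fgf17, a fibroblast growth factor of the streak, at 28.3, 9.73 and 5.45 CPM in the same order. The log2 ratios of JupHigh over JupLow were -1.94 (-2.21 to -1.67) for Skil, 2.31 (1.86 to 2.79) for Sp5 and 1.54 (0.94 to 2.19) for Fgf17. JupHigh over WT had 5 of 30 list genes past 2-fold upward and 8 downward (9.4% and 20.3% of all genes), and JupHigh over JupLow 3 and 5 of 27 (4.57% and 11.8%). JupLow over WT had 2 and 2 of 29 (7.63% and 11.2%). There Smad3, a signal carrier, was at 37.5 against 16.4 CPM (1.20, 0.62 to 1.81), the repressor Tgif1 at 45.9 against 82.3 CPM and Pmepa1 at 24.7 against 36.7 CPM. Smad3 in JupHigh over JupLow was -1.48 (-1.97 to -1.01), while in JupHigh over WT its interval held 0 (-0.92 to 0.38). The receptor genes were low throughout, summing to 29.6 to 40.6 CPM per library, with Acvr1c at 0 in all 5. Cer1, another secreted antagonist, was at 0 in all 5 as well.

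Each gene was found in a minority of cells. After thinning each cell to 1000 UMIs, Tdgf1 was seen in 22.2% of cells in WT serum/LIF, 11.3% in WT 2i/LIF, 32.1% in gel, 18.2% in JupLow and 22.7% in JupHigh. Unthinned shares were 43.4%, 28.3%, 48.2%, 34.4% and 36.2%. Thinned shares of Nodal lay between 1.79% in gel and 5% in JupLow. Those of Lefty2 were 0.828%, 5.95%, 3.57%, 2.5% and 2.00% in the same order as for Tdgf1. No cell type that should lack these genes was named in these data, so a background share from free RNA was not measured.

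In 3 of the 5 libraries Lefty1 UMIs lay in fewer cells than those of Nodal, although there were more of them. In WT serum/LIF 117 Lefty1 UMIs lay in 62 cells and 109 Nodal UMIs in 84 cells. The 5% of cells richest in the gene held 78.6% of the Lefty1 UMIs and 56.9% of the Nodal UMIs. In WT 2i/LIF the shares were 70.4% and 53.5%, and in JupLow 74.3% and 57.1%. In JupHigh 144 Lefty1 UMIs lay in 118 cells and 200 Nodal UMIs in 179, and the richest cells were nearly alike, at 5 and 4 UMIs; the shares of 93.1% and 64.5% there compare genes with different numbers of cells. In gel, on 27 and 10 UMIs, the shares were 88.9% and 90%. In JupLow 1 cell held 14 Lefty1 UMIs, as in gel. In thinned cells Lefty1 and Lefty2 were seen together in 12 cells of WT 2i/LIF, 8 of JupHigh, 4 of JupLow, 2 of WT serum/LIF and 0 of gel. The products of their separate shares would give 6.13, 1.26, 1.45, 0.248 and 0.214 cells. For Nodal with Lefty1 the counts were 2, 3, 5, 2 and 0 cells beside products of 4.14, 2.66, 2.90, 1.41 and 0.107. These are descriptions of few cells that share a library and its depth.

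Because endoderm markers were highest in WT serum/LIF, the library that serves as control in most comparisons, the genes were also read within each library by the endoderm marker UMIs of its cells. In WT serum/LIF 192 of 725 cells (26.5%) held 3 or more such UMIs. Lefty1 was at 29.4 CPM in these cells and 73.6 in the others, a log2 ratio of -1.33 (-2.08 to -0.63), and Tdgf1 at 217 and 331 CPM (-0.61, -0.89 to -0.34). Nodal, at 44.8 and 59.1 CPM, had an interval that held 0, as did Lefty2 and Smad7. In JupLow 199 of 1200 cells (16.6%) held 3 or more. There Tdgf1 was again lower in these cells, at 157 against 251 CPM (-0.68, -1.0 to -0.37). Smad7 was higher, at 41.9 against 16.6 CPM (1.34, 0.57 to 2.09), and so was Lefty2, at 41.9 against 23.3 CPM (0.85, 0.12 to 1.55). Lefty1 was alike there (62.1 and 64.0 CPM, -0.044, -0.59 to 0.47). In JupHigh 55 of 2153 cells (2.55%) held 3 or more, with Tdgf1 lower in them (-0.71, -1.39 to -0.10) and Nodal higher (1.10, 0.17 to 1.91). In WT 2i/LIF, 206 of 2889 cells (7.13%), all 5 intervals held 0. The gel library held 10 of these cells, with Tdgf1 higher in them, at 1190 against 439 CPM (1.44, 0.78 to 2.05), on 29 UMIs. Of these, 14 came from 1 cell, and without it the ratio was 0.83 with an interval that held 0 (-0.062 to 1.63). Lefty2 in JupLow was 0.63 without its richest cell, also with an interval that held 0 (-0.15 to 1.36). Sparc, a matrix protein gene on the marker list, made up 1708 of the 2183 marker UMIs in WT 2i/LIF, 1064 of 1808 in JupLow, 656 of 1361 in JupHigh and 1872 of 4676 in WT serum/LIF. Gata4, Gata6 and Sox17, transcription factors of the endoderm, had 17, 0 and 1 UMIs in WT 2i/LIF and 5, 16 and 1 in JupLow, against 58, 129 and 42 in WT serum/LIF. Without Sparc 109 cells of WT serum/LIF, 55 of JupLow, 17 of JupHigh, 11 of WT 2i/LIF and 5 of gel held 3 or more marker UMIs. Tdgf1 was then lower in these cells by a log2 ratio of -1.45 (-1.93 to -1.01) in WT serum/LIF and -2.50 (-3.72 to -1.51) in JupLow. Lefty1 was lower in both, at -1.41 (-2.58 to -0.44) and -1.63 (-3.52 to -0.25), and Nodal in WT serum/LIF, at -1.69 (-3.05 to -0.60). In JupLow, on fewer cells, the intervals of Smad7 (1.05, -0.23 to 2.12) and Lefty2 (-0.81, -3.12 to 0.79) then held 0. In JupHigh those of Tdgf1 (-0.66, -2.11 to 0.47) and Nodal (0.26, -2.79 to 2.14) did. That of Tdgf1 in gel, on 1 UMI in these cells, held 0 as well. With Sparc kept, the ES cell marker Pou5f1 was also lower in cells of 3 or more marker UMIs in WT serum/LIF, at 360 against 523 CPM (-0.54, -0.75 to -0.33). In JupLow it was lower too (-0.31, -0.53 to -0.096), in WT 2i/LIF higher (0.15, 0.026 to 0.27), and in gel and JupHigh its interval held 0. Deeper cells reach 3 marker UMIs more easily, and cells of 1 library are not replicates.

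With the cells of 3 or more marker UMIs, Sparc included, left out of every library, the log2 ratio of 2i/LIF over serum/LIF was -0.88 for Lefty1 (-1.22 to -0.53) and -1.38 for Tdgf1 (-1.54 to -1.21). Gel over plastic was 0.41 for Tdgf1 (0.067 to 0.73). JupHigh over WT was -0.32 for Tdgf1 (-0.48 to -0.15). Over all alternatives tried, Lefty2 over WT serum/LIF lay between 2.58 and 3.27 in 2i/LIF, between 1.44 and 2.18 in gel, between 1.04 and 1.85 in JupLow and between 1.17 and 1.77 in JupHigh. These ratios all share the low WT serum/LIF value, on 18 UMIs. No alternative changed how that library was counted, so the ranges do not cover a difference in counting.

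**Figure D5:**
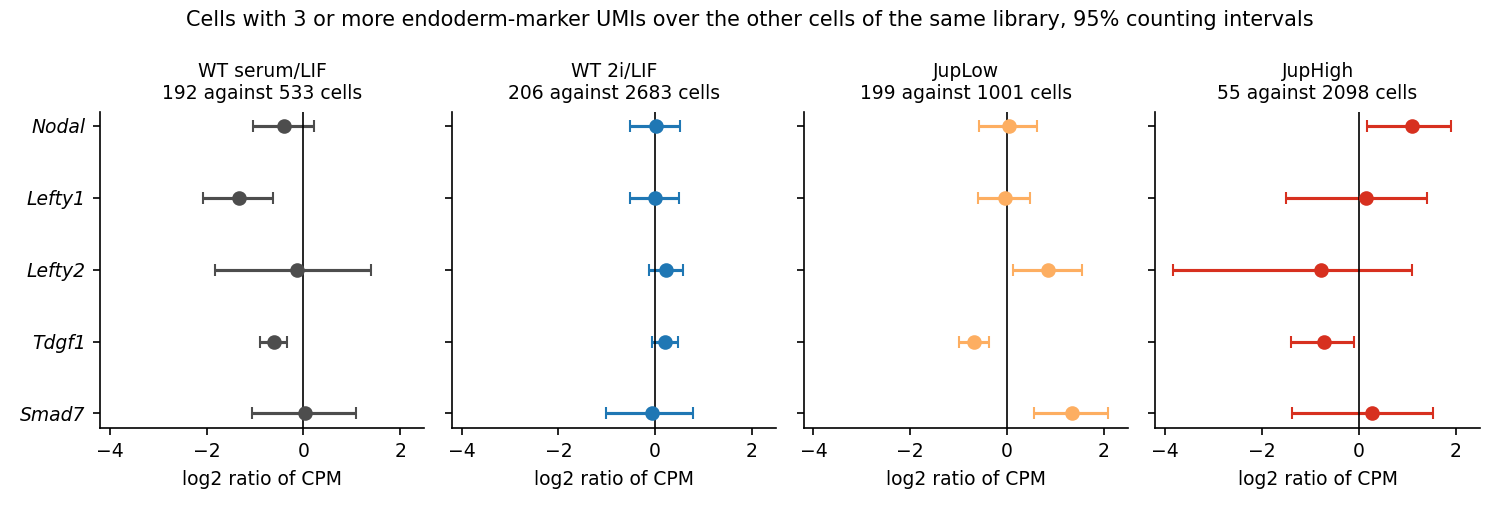
Log2 ratio of CPM (x axis) in cells with 3 or more UMIs of 13 primitive endoderm markers over the other cells of the same library, for 5 genes in the 4 plastic single-cell libraries, with 95% counting intervals. Tdgf1 lies to the left of 0 in the 3 serum/LIF plastic libraries, Lefty1 does so in WT serum/LIF, and Smad7 lies to the right of 0 in JupLow.

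Profiles most like those of Nodal, Lefty1, Tdgf1 and Smad7 were sought over the 5 libraries among 8348 genes of at least 20 CPM in their highest library, by Euclidean distance of centred log2(CPM + 10). For Nodal they were Ranbp2, Ipo8 and Nemf, at distances of 0.023, 0.057 and 0.071. For Lefty1 they were Pclaf, Smad5 and Klhl26 (0.117, 0.118 and 0.173). Those of Tdgf1 were Egr1, Pgk1 and Pcdh9 (0.338, 0.379 and 0.397), and those of Smad7 were Frat2, Prodh and Dnajb9 (0.236, 0.317 and 0.332). None of these is one of the 8 genes. The distances take no account of counting error, and the gel values of Nodal and Smad7 rest on 10 and 12 UMIs. Of the 122 Tdgf1 UMIs in gel, 14 came from 1 cell. With Pearson's correlation in place of distance, 2 of the 3 names of Nodal recurred and 0 of the 3 of each of the other 3 genes. The 3 genes named for Lefty1 by distance were highest in gel, where 14 of the 27 Lefty1 UMIs came from 1 cell. Without it Lefty1 in gel was at 56.0 CPM, and the search was not repeated without that cell.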

How the data were processed

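The authors deposited the bulk data as a signal, counts divided by 1 factor per library as judged from the numbers themselves, since 100% came out as whole reads within 0.01 reads. The deposited single-cell tables hold UMI counts by barcode, not normalized. The submitters' processing notes name FastQC, STAR, featureCounts, DESeq2 and Scanpy and the builds mm10 and GRCm38, with no role or version. Whether counting used strand is not given in the sources used here. The names of 3 bulk columns combine marks for gel and for plastic; they were taken as plastic because the other 3 bear the gel mark alone. Plastic replicate 2 is numbered 2 in its title and 3 in its description, and the title was followed.

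Bulk groups were compared with limma 3.58.1 (R 4.3.3, intensity trend) on log2(value + 0.5) for genes passing the edgeR 4.0.16 expression filter on the recovered reads, with Benjamini-Hochberg adjustment at 0.05. Fold changes are on this log2 scale: the added 0.5 draws those of low genes toward 0, while a mean of logs can exceed the log of a ratio of means. edgeR and DESeq2 1.42.0 on the recovered reads were alternatives. Replicate pairs differed by more than sampling noise (chi-square per degree of freedom 1.58 to 2.20).

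Cells are barcodes of 1000 UMIs or more, and no doublet caller was run. Columns without a gene name (0.00508% to 0.499% of UMIs) were left out. Summed UMIs were given as CPM with exact Poisson intervals, and ratios with exact conditional binomial intervals. The floor is 3 UMIs, or 0.362 to 12.7 CPM by library. UMI intervals cover counting error only. Both steps were tested on simulated data. The simulated UMIs were drawn as Poisson counts, so this does not test the intervals where UMIs are clumped in few cells. NumPy 2.4.6 and SciPy 1.17.1 were used.

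The 8 genes are all described whatever their values. Of the lists, those called in bulk are named, and per single-cell comparison the 3 with the largest absolute log2 ratio at 20 CPM or more. Members and lists were chosen with earlier results of these data known. The richest-cell alternative, the split by endoderm UMIs and that without Sparc, the bulk Lefty2 share and the overlap check were added after seeing the data. The likeness search for Lefty2 and the Lefty sequences are not reported here.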

Additional observations from a re-analysis of the deposited data

Results flagged for a closer look

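Lefty1 went opposite ways between gel and plastic in the 2 experiments. In bulk 2i/LIF all 3 gel libraries lay below all 3 plastic libraries, while among single cells in serum/LIF gel over plastic had a log2 ratio of 0.98, above 0 beyond counting error. The difference between the experiments was not tested, since line, medium and assay all differ and cannot be told apart. Without the richest cell of each library the single-cell value was 0.023.

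In barcodes under 500 UMIs, which were not counted as cells, 3 values lay above those of WT serum/LIF beyond counting error. The search covered the 8 genes in the gel, JupLow and JupHigh libraries and looked for higher values only. How many of all genes would pass it was not counted, so the count of 3 is not a result about these genes. Lefty1 stood at 121 CPM in the gel library (22 UMIs) against 40.5 CPM in WT serum/LIF. Lefty2 stood at 22.8 CPM in JupLow against 10.1 CPM. T stood at 32.9 CPM in the gel library, on 6 UMIs, against 3.23 CPM on 7 UMIs in WT serum/LIF. Tdgf1 went the other way in these barcodes. It stood at 241 CPM in JupLow (219 to 265) and 354 in JupHigh (307 to 406), against 481 in WT serum/LIF (452 to 511).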

How the results depend on the processing

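The count of bulk genes called (2906) was 727 with an absolute log2 fold change of at least 1 and stayed within 1.5 times in the other alternatives. Leaving out each replicate gave 2361 to 2833 calls. With the replicate number as a block it was 2988. Same-numbered gel and plastic libraries did not deviate together (correlations -0.052, 0.016 and 0.024). No pairing by number was thus seen, though so few libraries cannot exclude a weak pairing. With a replicate left out, Tdgf1 in bulk ranged from -0.033 (without gel replicate 3) to 0.084 (without gel replicate 2), and was -0.0059 without plastic replicate 2. In single cells Tdgf1 in JupHigh over WT turned from -0.15 to 0.13 with TMM. Between cells with 3 or more endoderm UMIs and the others, leaving Sparc out of the markers turned Tdgf1 in gel from 1.44 to -1.90 and Lefty2 in JupLow from 0.85 to -0.81.

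Counts of the 8 genes past 2-fold, low-count genes included, moved by over 1.5 times as follows, smaller moves not listed. For 2i/LIF over serum/LIF, 4 became 2 without cells of 3 or more endoderm UMIs, with cells thinned and without the richest cells. For gel over plastic, 3 became 6 with every barcode and 1 at 4-fold. For JupHigh over WT, 3 became 5 at 2000 UMIs and 1 with thinning. For JupLow over WT, 2 became 1 without barcodes above 3 times the median, without endoderm-marker cells, with thinning, without the richest cells and at 4-fold, and 3, a smaller move, with every barcode. For JupHigh over JupLow, 1 became 2 at 2000 UMIs, with every barcode and with cells weighted alike. No share of all genes is set beside these counts, so they are not a result about the 8 genes as a group. The causes were not tested. At this depth T, Mixl1 and Eomes cannot be compared beyond the intervals given.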
